A study of Mus musculus with 89 samples.

Results

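The genes described here are 10 genes of ion transport across the airway surface, namely Slc26a4, Fxyd4, Fxyd3, Cftr, Scnn1a, Scnn1b, Scnn1g, Ano1, Slc12a2 and Atp1b1. They were taken by symbol, through the transcript accession of each non-control probe, and all 10 of them were found among the 22911 genes measured. They were covered by 13 of the 56605 probes, with 2 probes each for Fxyd3, Cftr and Scnn1a and 1 probe for each other gene. The genes were selected from those of known function with results of these same arrays already in view. Which measured values entered that choice is not recorded, so every measure of the genes here counts as used. Their levels and differences are therefore given as a description. An adjusted p-value says where a gene stood in the fit over all genes and is no independent evidence.

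RNA was measured in lung tissue of female BALB/c mice, all of them sensitized with ovalbumin (OVA) and alum, so that no group was free of sensitization. Mice were then challenged by oropharyngeal aspiration with PBS or with OVA, which gives allergic airway inflammation. The PBS controls (7 samples) and OVA controls (8 samples) received no particles. The exposed mice received core CuO or its carboxylated (CuO COOH), methylaminated (CuO NH3) or PEGylated (CuO PEG) derivative at 2.5, 10 or 40 µg per mouse and administration, under each challenge. Doses were equal in mass of material and not in copper. The 24 exposed groups held 3 samples each, apart from CuO NH3 and CuO PEG at 10 µg with PBS challenge, which held 4. Each of the 89 samples in the 26 groups was a pool of 2 RNA samples, so the spread within a group is one between pools.

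The samples were hybridised with Cy3 or Cy5 on 46 two-colour arrays of 6 slides. CuO and CuO COOH lay on the first 3 slides, CuO NH3 and CuO PEG on the other 3, and all slides held controls. The median foreground intensity over all non-control spots ranged from 62 to 130 in Cy3 and from 70 to 203 in Cy5, and between 46.7% and 68.8% of spots were well above background. The arrays measure whole lung tissue, so more RNA per cell and more cells of a kind cannot be told apart for any gene below. Fold changes come from a limma fit with dye and array as terms, and a gene is named as called, risen or fallen where its adjusted p was under 0.05 and its log2 fold change beyond 0.58. Levels are log2 intensities with dye, slide and array position removed, so a difference of level means need not equal the fitted fold change. Where groups are said to overlap or not, the share of all genes that did so was not counted.

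Airway epithelium keeps its surface liquid hydrated by secreting chloride and bicarbonate and absorbing sodium. Cftr, the cAMP-gated anion channel that is defective in cystic fibrosis, and Ano1, the calcium-gated chloride channel, carry anions out at the apical side. Slc26a4, known as pendrin, exchanges chloride for bicarbonate and other anions at that side and is known as a gene that interleukin 13 induces. Slc12a2, the sodium potassium chloride cotransporter, loads chloride from the basolateral side. Scnn1a, Scnn1b and Scnn1g encode the alpha, beta and gamma subunits of the epithelial sodium channel. Atp1b1 is a beta subunit of the Na,K-ATPase, and Fxyd3 and Fxyd4 belong to the small FXYD proteins that modulate this pump.

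Promoter sequence was available for 8 of the 10 genes from RefSeq (GRCm38.p6), and the stretches shown are those of the pair of genes with the widest range of levels, Slc26a4 and Fxyd4. The Slc26a4 stretch lies at chr12:31560056-31560234 on the minus strand, upstream of every annotated start of the gene. It runs from 250 to 72 bases before the start used by the promoter entry. Neither it nor the upstream window of any of the other 7 genes held TTC and GAA with a gap of 4 or 3 bases (the STAT6 and general STAT motifs, in 5.85% and 7.02% of 32851 promoters), TGANTCA (AP-1, 6.75%) or TGTTTAC (forkhead, 3.17%), on either strand. The Slc26a4 promoter held a TATA box, TATAAA (12.4% of promoters), shown in capitals in the window at chr12:31559998-31560027. This window lies before the start used by the promoter entry but downstream of the outermost annotated start of the gene. The Fxyd4 window at chr6:117937417-117937446, also minus strand, holds in capitals the reverse complement of TGCNCNC, the core of the metal response element, which 44.4% of promoters carried. A match is a description of letters, and its absence from this window says nothing of a factor.
Slc26a4 upstream: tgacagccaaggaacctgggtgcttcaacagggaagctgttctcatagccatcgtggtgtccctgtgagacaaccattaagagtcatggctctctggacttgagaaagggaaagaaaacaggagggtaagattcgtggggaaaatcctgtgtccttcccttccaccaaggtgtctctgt
Slc26a4 TATA window: ttgagtgagagcTATAAAggcagcagaaaa
Fxyd4 metal response element core window: gggctgcctacGGGAGCAtaagaggtagga

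Slc26a4 had the widest range of the 10 genes, 5.54 on the log2 scale between the lowest and the highest group mean, against a pooled SD of 0.42 within groups. In the PBS controls its level was lowest at 7.73, with a median of 8.27 and a highest of 9.003, and in the OVA controls it ran from 12.22 through a median of 13.23 to 14.12. These control groups did not overlap. Among PBS-challenged mice the level was 8.76, 9.12 and 8.93 in the 3 samples of CuO PEG 2.5 and 9.40, 9.91, 9.35 and 9.16 in CuO PEG 10. It was 11.50, 11.78 and 11.48 in CuO PEG 40. CuO PEG 2.5 thus overlapped the PBS controls, CuO PEG 10 lay wholly above them, and CuO PEG 40 lay some 3 log2 units above them.

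With the other materials Slc26a4 was high from the lowest dose on. Core CuO gave 10.60, 11.08 and 11.55 at 2.5 µg, 11.38, 11.27 and 11.09 at 10 µg, and 11.03, 11.63 and 11.30 at 40 µg. CuO NH3 gave 11.54, 10.68 and 11.35 at 2.5 µg and 11.76, 11.27 and 11.95 at 40 µg. CuO COOH was more spread at 2.5 µg, with 10.32, 9.28 and 11.08, and gave 11.38, 10.38 and 10.91 at 40 µg. In the order of the 26 group means, the step from one group to the next was within their spread at 19 of 25 places. The steps beyond it included those between the PBS controls, CuO PEG 2.5, CuO PEG 10 and CuO COOH 2.5, and the step of 0.30 that parted the highest PBS-challenged from the lowest OVA-challenged group.

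All 12 exposed groups with OVA challenge had Slc26a4 means between 12.00 and 13.94. The lowest 3 were the 40 µg groups of CuO COOH (12.25, 11.95 and 11.80), CuO (11.93, 12.29 and 11.93) and CuO NH3 (12.27, 12.52 and 11.74). CuO PEG 40 with OVA stood apart from them at 13.10, 12.99 and 13.31. A step of 0.65 lay between the first 3 and the next group.

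**Figure D1:**
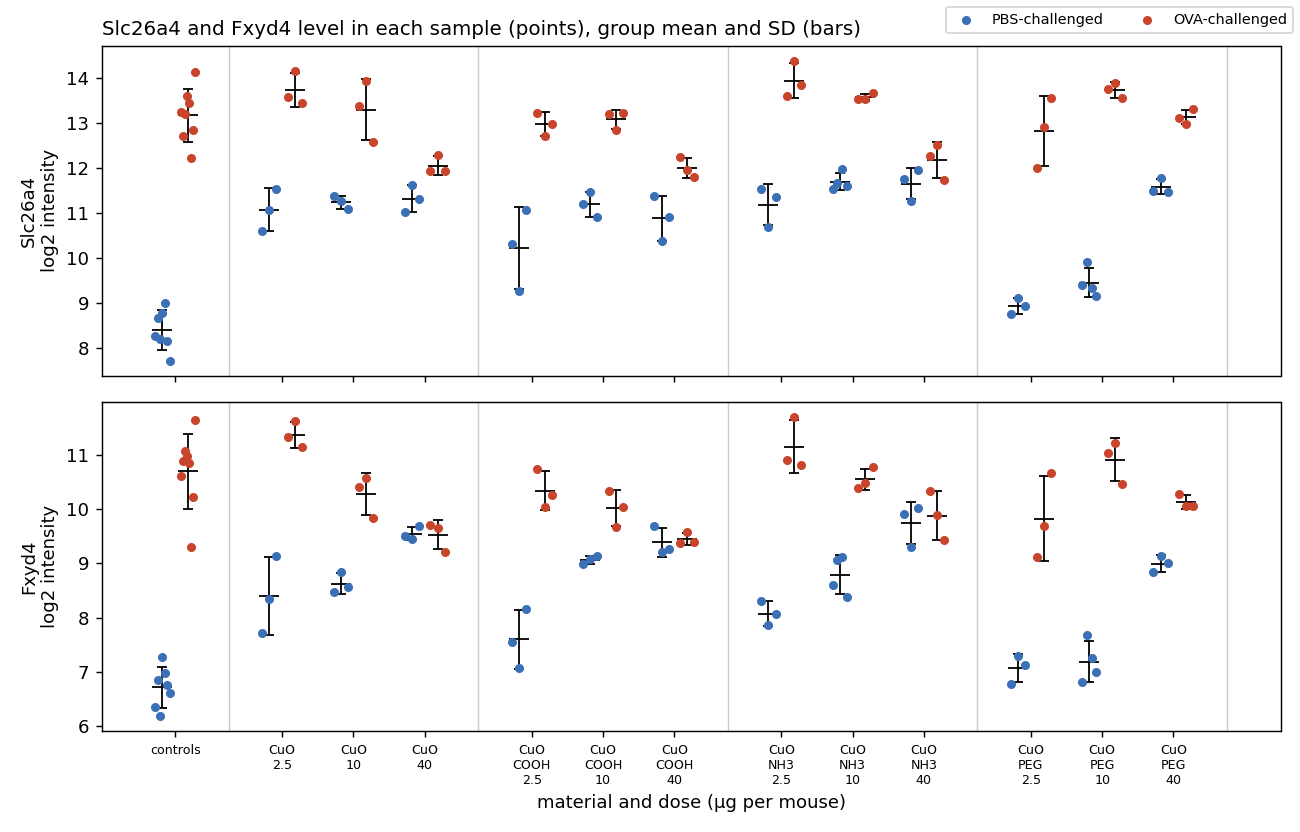
Levels of Slc26a4 (top) and Fxyd4 (bottom) in log2 intensity for each sample, by material and dose in µg per mouse, with PBS challenge in blue and OVA challenge in red; bars give the group mean and SD. The PBS and OVA controls do not overlap for either gene (Slc26a4 means 8.40 and 13.17, Fxyd4 means 6.71 and 10.70).

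Fxyd4 followed a like order over a range of 4.65 (pooled SD 0.42). The PBS controls ran from 6.18 through a median of 6.76 to 7.27 and the OVA controls from 9.31 through 10.86 to 11.65. With PBS challenge the group mean was higher at each higher dose of every material. Core CuO had means of 8.40 ± 0.71 at 2.5 µg, 8.63 ± 0.19 at 10 µg and 9.55 ± 0.13 at 40 µg (SD, n = 3 each). CuO PEG had 7.07 ± 0.26, 7.19 ± 0.37 and 8.99 ± 0.16 (n = 3, 4 and 3). The samples of CuO COOH 40 (9.70, 9.22 and 9.26) lay on both sides of those of the same dose with OVA challenge (9.37, 9.59 and 9.40), which was also the lowest OVA-challenged group of Fxyd4. At 40 µg of CuO, CuO COOH and CuO NH3 the challenges thus overlapped for Fxyd4, whereas at the other 9 pairs of material and dose they did not. Over the 26 group means Slc26a4 and Fxyd4 correlated with r = 0.957, a description over groups that share slides and controls.

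The first comparison asks what OVA challenge alone did. In the OVA controls Slc26a4 rose by 4.36 ± 0.33 (SE) on the log2 scale, 20.5-fold, and Fxyd4 by 3.59 ± 0.38, 12.0-fold. The gamma subunit of the sodium channel, Scnn1g, fell by 0.61 ± 0.17, from a level of 11.76 ± 0.21 (SD, n = 7) to 11.18 ± 0.16 (n = 8). The other 7 genes were not called, with fold changes from -0.34 (Scnn1a) to 0.11 (Cftr). The 3 called genes were called in a comparison in which 5.22% of the 22851 genes tested were, 3.72% higher and 1.51% lower. By size, Slc26a4 was the fifth highest log2 fold change of all genes.

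The call of Scnn1g was lost with array as a random block (-0.54) and with the controls of the first 3 slides alone (-0.51), where its fold change was under the threshold. It was also lost without PBS control replicate 2, 3 or 5 or OVA control replicate 3 or 6. With the controls of the last 3 slides alone, Slc26a4 was the only call, while Fxyd4 stood at 2.49 and Scnn1g at -0.73, neither called.

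**Figure D2:**
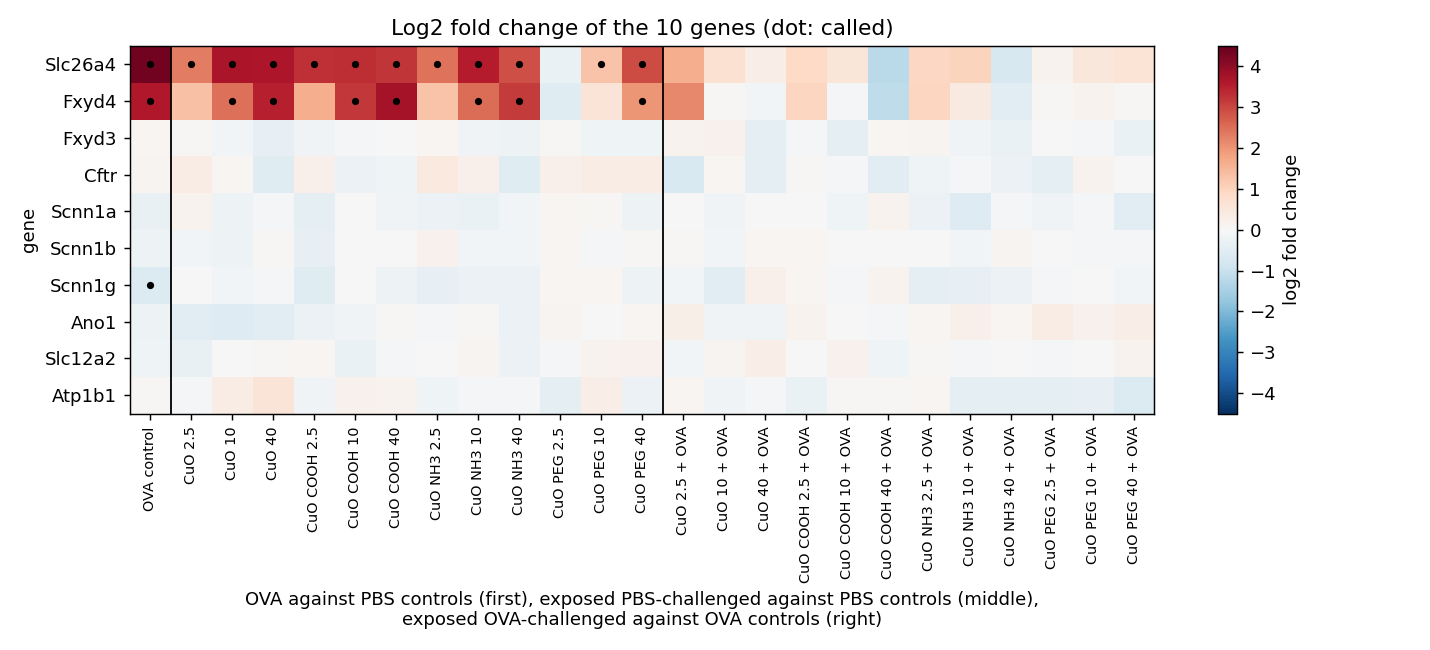
Log2 fold changes of the 10 genes (rows) in the 25 comparisons with controls (columns), with red for higher and blue for lower and a dot for each call. Dots stand in the Slc26a4 and Fxyd4 rows, and 1 in the Scnn1g row.

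The exposed, PBS-challenged groups were set against the PBS controls to ask what the particles did in the lung without allergen challenge. Slc26a4 was called in 11 of 12 groups and Fxyd4 in 7 of 12, all of them higher. None of the other 8 genes was called, so that 18 of 120 gene and group pairs passed, where 4.41% of all gene tests did, and 2.72% as higher. The same 7 PBS controls serve in all 12 comparisons.

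For Slc26a4, core CuO gave log2 fold changes of 2.29 ± 0.49, 3.68 ± 0.58 and 3.64 ± 0.56 (SE) with rising dose. CuO NH3 gave 2.44 ± 0.46, 3.55 ± 0.40 and 2.89 ± 0.39. CuO COOH gave 3.29 ± 0.60, 3.33 ± 0.60 and 3.21 ± 0.54. CuO PEG gave -0.28 ± 0.53, not called, then 1.28 ± 0.28 and 2.93 ± 0.46. The change was thus of like size from 10 µg on for the first 3 materials, while for CuO PEG it was larger at each higher dose. The array term leaves out 1 of the 3 samples of CuO COOH 2.5, which was alone on its array, and with dye, slide and position as terms that value was 1.82. With those terms core CuO gave 2.84 at 10 µg and 2.92 at 40 µg, and CuO COOH gave 2.48 at 40 µg, each still called.

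For Fxyd4 the lowest dose called in this fit was 10 µg in 3 materials and 40 µg in CuO PEG. Core CuO gave 1.30 ± 0.56 (not called), 2.48 ± 0.65 and 3.48 ± 0.63. CuO COOH gave 1.64 ± 0.67 (not called), 3.20 ± 0.67 and 3.73 ± 0.61, and CuO NH3 1.27 ± 0.52 (not called), 2.52 ± 0.45 and 3.14 ± 0.44. CuO PEG gave -0.54 ± 0.60 and 0.56 ± 0.31, neither called, and 1.97 ± 0.52. With dye, slide and position as terms Fxyd4 was also called at 2.5 µg of CuO (1.69, adjusted p = 0.00115) and CuO NH3 (1.36, adjusted p = 0.00659), so the lowest dose called depends on the batch terms. With those terms core CuO gave 2.84 at 40 µg, CuO COOH 2.35 at 10 µg and 2.68 at 40 µg. The call of Fxyd4 in CuO PEG 40 was lost in 8 of the 10 fits that left out 1 of its own samples or of the PBS controls, and with the controls of the same slides (1.05).

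With only the controls of the same slides, 13 of the 18 calls were made, and the others lost were Slc26a4 in CuO NH3 2.5 (2.41), CuO PEG 10 (1.29) and CuO PEG 40 (2.89) and Fxyd4 in CuO NH3 10 (1.91). The share of all genes called with those controls was not counted. Leaving out single samples, the calls lost for Slc26a4 were those of CuO 2.5 without replicate 2 or 3 or PBS control replicate 2 or 3, CuO 40 without replicate 2, CuO COOH 2.5 without replicate 1 or 3 or PBS control replicate 3, CuO COOH 10 without replicate 3, CuO NH3 2.5 without replicate 1 or 3, and CuO PEG 10 without replicate 2 or 3 or PBS control replicate 6 or 7. For Fxyd4 they were, besides CuO PEG 40, those of CuO 10 without replicate 2 or 3 or PBS control replicate 2 or 3, CuO 40 without replicate 2, and CuO COOH 10 without replicate 1 or 3 or PBS control replicate 1. Without PBS control replicate 1 the called values of CuO COOH 40 were 4.46 for Slc26a4 and 4.39 for Fxyd4.

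In mice with OVA challenge, the exposed groups were set against the OVA controls. None of the 120 pairs of gene and group was called by limma, in a family with 1.2% of gene tests called, and 17 pairs had an unadjusted p under 0.05. Such p-values were common over all 22851 genes, from 1290 of them in CuO PEG 10 to 5065 in CuO COOH 40, CuO 2.5 left aside. The 17 pairs are therefore a description only. Slc26a4 ranged from -1.21 ± 0.39 in CuO COOH 40 to 1.64 ± 0.81 in CuO 2.5, and Fxyd4 from -1.14 ± 0.44 in CuO COOH 40 to 2.16 ± 0.91 in CuO 2.5. The CuO 2.5 values rest on 1 sample, since the array term leaves out the 2 of 3 that were alone on their arrays.

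Single controls made calls as well. Without OVA control replicate 6, Slc26a4 was called in CuO COOH 40 (-1.24) and CuO NH3 40 (-1.17) and Fxyd4 in CuO COOH 40 (-1.17). Slc26a4 in CuO COOH 40 was also called without OVA control replicate 8 (-1.20), and Scnn1a in CuO NH3 10 without OVA control replicate 5 or 8 or its own replicate 1 (-0.62 to -0.59).

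These results moved with the batch terms. With dye, slide and position in place of array, 4137 of the 274212 gene tests in the family were called over all genes. Among the 10 genes 5 pairs were called, all lower. They were Slc26a4 in the 40 µg groups of CuO (-1.12), CuO COOH (-1.17) and CuO NH3 (-1.0004), and Fxyd4 in those of CuO (-1.17) and CuO COOH (-1.25). For Slc26a4 in CuO 40 the sign turned, since the fit with the array term gave 0.29 ± 0.55, while its level mean was 12.05 ± 0.21 (n = 3) against 13.17 ± 0.58 (n = 8) in the OVA controls. For CuO COOH 40 both fits gave much the same value for Slc26a4 (-1.21 and -1.17).

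The difference between the exposure effect under OVA and that under PBS was tested as an interaction. All 7 calls among 120 pairs were lower under OVA and belonged to Slc26a4 and Fxyd4, in a family with 0.347% of gene tests called and 0.312% called lower. At 40 µg, Slc26a4 had differences of -3.35 ± 0.62 for CuO (adjusted p = 0.00464), -4.42 ± 0.64 for CuO COOH (0.000487) and -3.62 ± 0.55 for CuO NH3 (0.000411). Fxyd4 had -3.62 ± 0.69 (0.00677), -4.87 ± 0.72 (0.000630) and -3.63 ± 0.62 (0.00136) in the same order. Both genes thus rose with these 3 materials in mice without allergen challenge. Against the OVA controls they were not called in this fit, while 5 pairs were called lower with dye, slide and position as terms.

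The remaining call was Slc26a4 in CuO NH3 10, at -2.54 ± 0.52 (adjusted p = 0.0464), which was lost in 14 of 22 fits that left out a sample and with normexp background correction. CuO PEG had no call, with Slc26a4 at 0.43 ± 0.72, -0.75 ± 0.54 and -2.31 ± 0.66 with rising dose. The calls for CuO 40 were lost without replicate 2 of CuO 40 or of CuO 40 with OVA, and for Fxyd4 also without PBS control replicate 2 or 3 or OVA control replicate 3. Without PBS control replicate 1, Slc26a4 stood at -5.60 and Fxyd4 at -5.49 for CuO COOH 40, both called. The Slc26a4 value for CuO NH3 40 ran from -4.04 to -3.02 as single samples were left out, called each time. Without OVA control replicate 6 there were 12 calls. With dye, slide and position as terms there were 16 calls, all of Slc26a4 (9) and Fxyd4 (7), and both genes were then called for CuO PEG 40. Calls rose over all genes as well, to 4269 of the 274212 gene tests in the family with those terms.

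**Figure D3:**
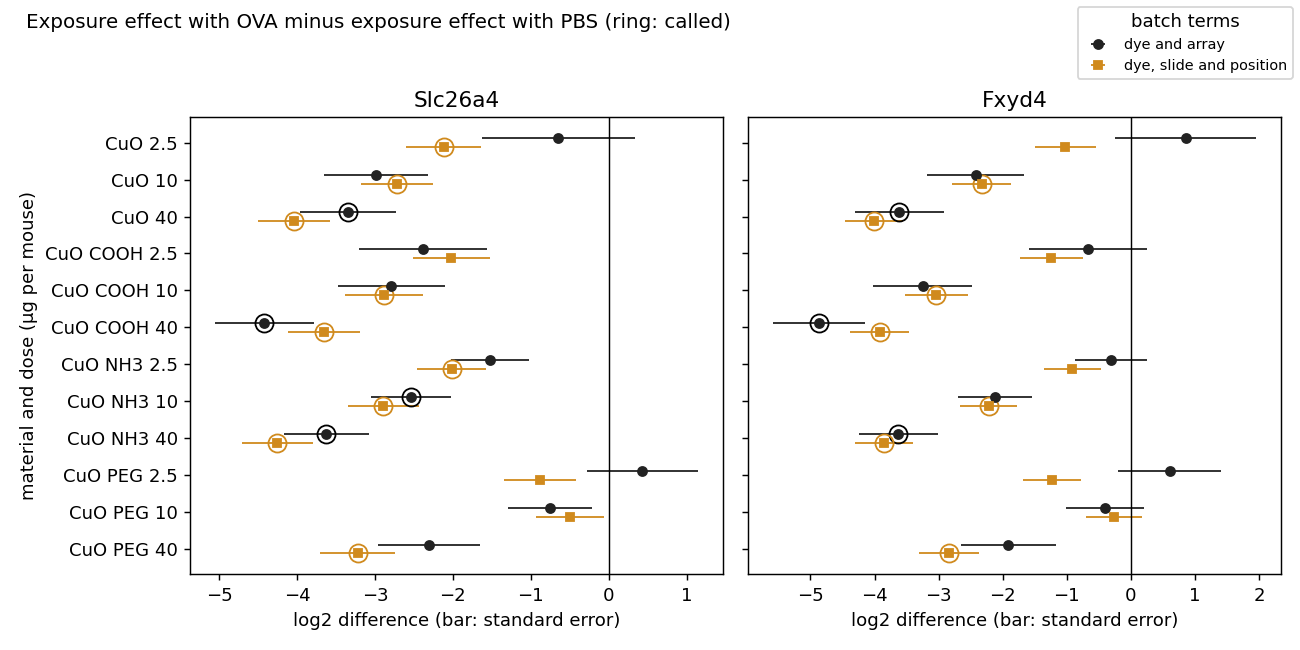
Difference on the log2 scale between the exposure effect in OVA-challenged and in PBS-challenged mice for Slc26a4 (left) and Fxyd4 (right) by material and dose, with standard errors; circles are from the fit with dye and array, squares from that with dye, slide and position, and rings mark calls. The values at 40 µg of CuO, CuO COOH and CuO NH3 lie between -3.35 and -4.87 in the first fit.

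OVA-challenged and PBS-challenged mice at the same material and dose were also compared, which uses no control sample. Of 120 pairs, 10 were called, 7 higher and 3 lower, where 2.04% of gene tests in the family were, 1.29% higher and 0.756% lower. Slc26a4 was higher with OVA in CuO NH3 2.5 (2.84 ± 0.39), CuO NH3 10 (1.82 ± 0.46), CuO PEG 2.5 (4.79 ± 0.57) and CuO PEG 10 (3.61 ± 0.58). Fxyd4 was higher in CuO NH3 2.5 (3.28 ± 0.44), CuO PEG 2.5 (4.19 ± 0.64) and CuO PEG 10 (3.19 ± 0.65). At 40 µg neither gene was called in any material in this fit. Fxyd4 had differences of -0.03 ± 0.59 for CuO, -1.28 for CuO COOH, -0.04 ± 0.58 for CuO NH3 and 1.68 for CuO PEG. The level means of Fxyd4 in CuO COOH 40 were 9.45 with OVA and 9.39 with PBS, so fit and levels differed there. In levels, all OVA-challenged samples of Slc26a4 lay above all PBS-challenged ones at 11 of 12 pairs of material and dose, and the exception was CuO NH3 40. How many of all genes separate in this way was not counted.

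That no call fell in CuO or CuO COOH depends on the array term. In the fit with dye, slide and position 11974 of the 274212 gene tests in the family were called over all genes. Slc26a4 was then called in 9 of the 12 pairs and Fxyd4 in 7. Among them were both genes in CuO 2.5, CuO 10 and CuO COOH 2.5 and Slc26a4 in CuO PEG 40 (1.55, adjusted p = 0.00894). Without CuO PEG 40 replicate 2, that last difference was 2.45 and called with the array term too, as it was without CuO PEG 40 with OVA replicate 2 (2.12). The calls of CuO PEG 2.5 were lost without its PBS-challenged replicate 3 (Slc26a4 then 3.29, Fxyd4 3.08), and those of CuO PEG 10 without its OVA-challenged replicate 3 (2.53 and 2.38). The CuO NH3 2.5 values, called in every such fit, ran from 2.21 to 3.85 for Slc26a4 and from 2.57 to 4.20 for Fxyd4. The call of Slc26a4 in CuO NH3 10 was lost without PBS-challenged replicate 2 or OVA-challenged replicate 2 or 3.

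The epithelial sodium channel went the other way. Scnn1g was lower with OVA than with PBS in 11 of 12 pairs of material and dose, with log2 fold changes from -0.95 to 0.00, and Scnn1a in 11 of 12, from -0.60 to 0.11. Of these, Scnn1g fell in CuO NH3 2.5 (-0.68 ± 0.20, adjusted p = 0.0233), and Scnn1a fell in CuO NH3 10 (-0.60 ± 0.15, adjusted p = 0.0166) and CuO PEG 2.5 (-0.59 ± 0.19, adjusted p = 0.0486). With dye, slide and position as terms Scnn1g was called in 6 of the 12 pairs and Scnn1a in none, where 11974 of 274212 gene tests were called. Without CuO PEG 40 replicate 2 Scnn1a was called in CuO PEG 40 (-0.75), and without CuO NH3 10 with OVA replicate 1 Scnn1g in CuO NH3 10 (-0.95). The last of the 3 calls was lost in every fit that left out a sample of its groups, and each of the other 2 in 4 such fits.

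In levels, all 3 OVA-challenged samples of Scnn1g lay below all PBS-challenged ones at 11 of 12 pairs. The share of all genes that separate so between challenges was not counted, so this count describes Scnn1g only. At CuO NH3 2.5 they were 10.97, 11.001 and 10.91 against 11.87, 11.74 and 11.68, and at CuO COOH 40 they were 11.41, 11.36 and 11.38 against 11.47, 11.51 and 11.48. The exception was CuO 40, where 1 OVA-challenged sample at 11.73 stood above 2 of the 3 PBS-challenged samples (11.53 and 11.67). Particles without OVA left Scnn1g between group means of 11.49 and 11.83, and none of the 12 exposed groups was called against the PBS controls. Over the 26 group means Scnn1a and Scnn1g correlated with r = 0.894 and Slc26a4 and Scnn1a with r = -0.858, again as a description.

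The 2 probes of Scnn1a did not give the same difference between OVA and PBS controls. Probe 1 alone gave -0.62 ± 0.14 (adjusted p = 0.00382, called) and probe 2 gave -0.07 ± 0.15 (adjusted p = 0.911), in a fit over probes that called 3.71% of them. Scnn1b was dim, with its 1 probe well above background in 72 of the 89 samples, in 7 of 7 PBS controls and in 3 of 8 OVA controls. Its level was 6.47 ± 0.08 (n = 7) in PBS and 6.25 ± 0.14 (n = 8) in OVA controls, and it was not called in any comparison with the terms used here. With dye, slide and position as terms it was called between OVA and PBS challenge in CuO NH3 2.5 (-0.68, adjusted p = 5.62e-05, against -0.42 with array). In CuO NH3 2.5 with OVA it was not well above background in any sample, and its level of 5.93 there is a bound at most.

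**Figure D4:**
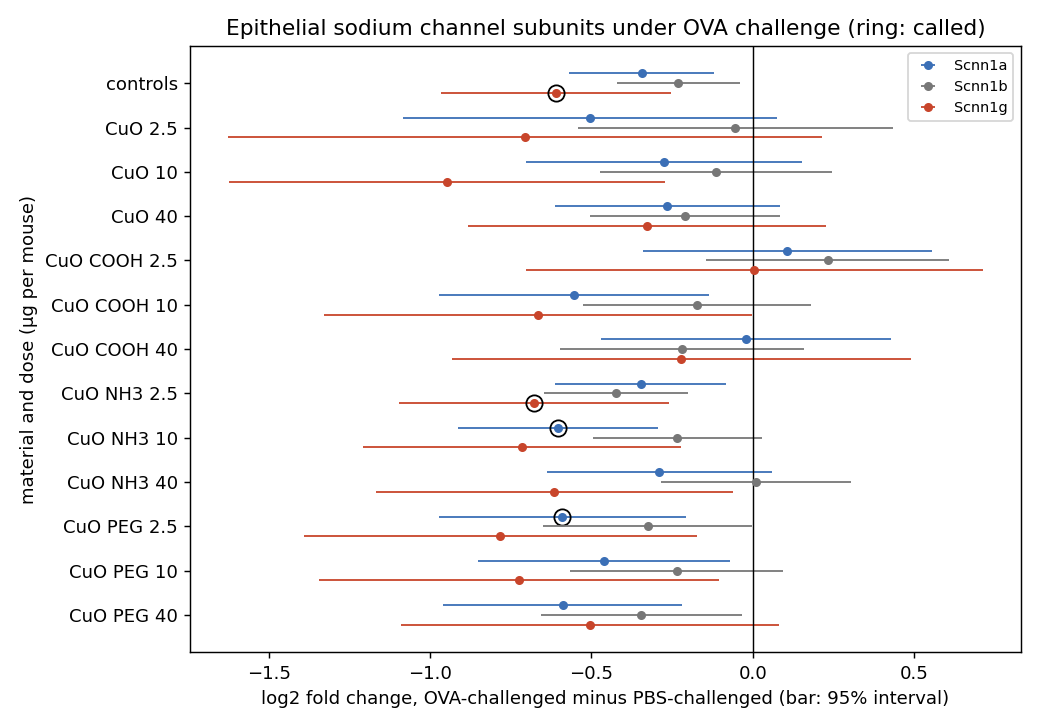
Log2 fold change of the epithelial sodium channel subunits Scnn1a, Scnn1b and Scnn1g between OVA-challenged and PBS-challenged mice, for the controls and for each material and dose, with 95% intervals and a ring for each call. Scnn1g lies below 0 in the controls and in 11 of 12 exposed pairs.

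The modified materials were set against core CuO at the same dose, with dye, slide and position as terms since CuO NH3 and CuO PEG lay on other slides than CuO. Of 180 pairs over 18 comparisons, 3 were called, where 0.5% of gene tests in the family were, and all 3 were CuO PEG with PBS challenge. Slc26a4 was lower in CuO PEG than in CuO at 2.5 µg (-2.14 ± 0.48, adjusted p = 0.00504) and at 10 µg (-1.79 ± 0.44, adjusted p = 0.0198). At 40 µg the difference was 0.27 ± 0.45, with a 95% interval from -0.64 to 1.17. Fxyd4 had -1.33 ± 0.48, -1.43 ± 0.43 and -0.56 ± 0.45 at the same doses, none of them called.

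Carboxylated and methylaminated CuO were not called against core CuO for any of the 10 genes. For Slc26a4 with PBS challenge, CuO NH3 differed from CuO by 0.12 at 2.5 µg (95% interval -0.88 to 1.11), 0.45 at 10 µg (-0.44 to 1.34) and 0.34 at 40 µg (-0.59 to 1.26). CuO COOH differed by -0.85 (-1.61 to -0.08), -0.05 (-0.84 to 0.74) and -0.43 (-1.19 to 0.32). The intervals leave room for differences of 1 on the log2 scale in most of these pairs. The call of Slc26a4 at 2.5 µg was lost without CuO 2.5 replicate 3, while without CuO 2.5 replicate 1 Fxyd4 was called there too (-1.78), and that at 10 µg without CuO 10 replicate 2 or 3 or CuO PEG 10 replicate 4. With dye and array as terms, which leave little to compare across slides, only the call at 2.5 µg was made and that at 10 µg stood at -2.40 (adjusted p = 0.123).

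Dose was compared as 40 against 2.5 µg within each material and challenge. There were 4 calls among 80 pairs, where 2.17% of gene tests in the family were called. Fxyd4 was higher at 40 µg in CuO NH3 (1.87 ± 0.45, adjusted p = 0.00709) and CuO PEG (2.51 ± 0.58, adjusted p = 0.0112), and Slc26a4 in CuO PEG (3.21 ± 0.52, adjusted p = 0.000457), all with PBS challenge. Without CuO PEG 2.5 replicate 3 the CuO PEG values were 1.49 and 1.84, no longer called, and the CuO NH3 call was lost without CuO NH3 2.5 replicate 3 or CuO NH3 40 replicate 3. With OVA challenge Slc26a4 and Fxyd4 had no call in this fit, and the values for CuO, CuO COOH and CuO NH3 were all negative, from -1.35 to -2.29. For CuO with OVA the lower dose again rests on 1 sample in this fit. In the fit with dye, slide and position 7594 of the 182808 gene tests in the family were called over all genes. Both genes were then called in CuO with OVA (Slc26a4 -1.68, adjusted p = 0.00161, and Fxyd4 -1.84, adjusted p = 0.000428) and in CuO NH3 with OVA (-1.77, adjusted p = 0.00104, and -1.26, adjusted p = 0.0223). Slc26a4 in CuO NH3 with OVA was also called without CuO NH3 2.5 with OVA replicate 1 (-2.17). With PBS challenge the fit with dye, slide and position called Fxyd4 higher at 40 than at 2.5 µg of CuO (1.15) and CuO COOH (1.79). All samples at 40 µg of these 3 materials with OVA lay below all samples at 2.5 µg, for both genes.

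Cftr, the remaining call, fell between 2.5 and 40 µg of CuO NH3 by 1.02 ± 0.20 on the log2 scale (adjusted p = 0.00127). Its level was 8.26, 8.43 and 8.49 at 2.5 µg and 7.69, 7.60 and 7.15 at 40 µg, without overlap, and 7.97 at the median of the PBS controls (7.80 to 8.10). Core CuO had 8.46, 8.32 and 8.14 at 2.5 µg and 7.73, 7.57 and 7.74 at 40 µg, and a difference that was called with dye, slide and position as terms (-0.63) and not with array (-0.86 ± 0.31). In CuO PEG the levels lay the other way round, at 7.83, 7.87 and 8.03 against 8.28, 8.36 and 8.20, with a fitted difference of 0.12 ± 0.26 that was not called.

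Cftr was higher in CuO PEG 40 than in CuO 40, by 0.60 ± 0.17 (adjusted p = 0.0152), lost without CuO PEG 40 replicate 2 or CuO 40 replicate 2 and with dye and array as terms (0.88, adjusted p = 0.155). Against the PBS controls it was called in no group, with log2 fold changes from -0.56 in CuO NH3 40 (adjusted p = 0.0357, under the fold threshold) to 0.46 in CuO NH3 2.5. The CuO NH3 40 value was -1.02 and called without CuO NH3 40 replicate 1 or PBS control replicate 5, and -0.59 and called without PBS control replicate 3. Between OVA and PBS challenge in CuO NH3 2.5 it stood at -0.53, and was called without CuO NH3 2.5 replicate 1 or CuO NH3 2.5 with OVA replicate 1 (-0.90) or 3 (-0.65). The OVA controls ran from 7.76 to 8.24 (mean 7.91 ± 0.16, n = 8) and overlapped the PBS controls (7.96 ± 0.10, n = 7). The fall in CuO NH3 was lost without CuO NH3 2.5 replicate 3 or CuO NH3 40 replicate 3. Probe 1 of Cftr was well above background in 54 of 89 samples, more often in Cy3 (34 of 44) than in Cy5 (20 of 45), and in no sample of 3 groups. Probe 2, well above background in all samples, gave -1.31 for CuO NH3 and 1.01 for CuO PEG against CuO, and probe 1 gave -0.73 and 0.19, where 6.06% and 3.81% of all probes were called.

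**Figure D5:**
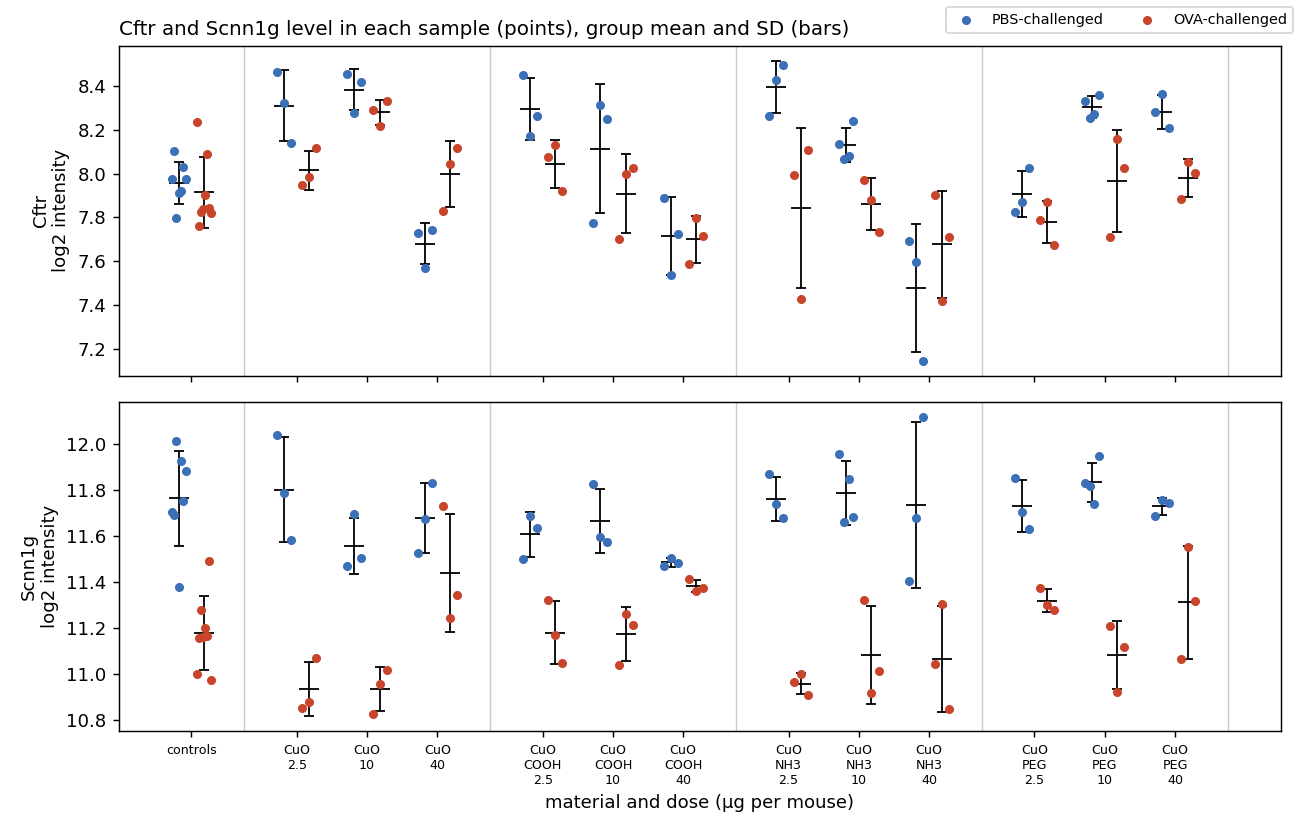
Levels of Cftr (top) and Scnn1g (bottom) in log2 intensity for each sample, drawn as for Slc26a4 and Fxyd4 but over a much narrower range of the axis. Cftr is lowest in CuO NH3 40 (mean 7.48) and highest in CuO NH3 2.5 (8.39), and Scnn1g is lower in OVA controls (11.18) than in PBS controls (11.76).

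The remaining genes had narrow ranges. Ano1 had a range of group means of 0.41, from 11.87 in CuO 2.5 to 12.28 in CuO PEG 2.5, and its levels in the PBS and OVA controls averaged 12.20 and 11.99. The cotransporter Slc12a2 had a range of 0.51, with 11.39 in PBS and 11.16 in OVA controls. Atp1b1 had a range of 0.59, with 12.15 in PBS and 12.30 in OVA controls, and Fxyd3 a range of 0.61, with 8.34 and 8.50. None of these 4 genes was called in any of the 75 comparisons with the terms used here. Fxyd3 in CuO 40 with OVA was called with array as a random block (-0.70, adjusted p = 3.22e-05). In the comparisons with controls their log2 fold changes ran from -0.63 (Atp1b1 in CuO PEG 40 with OVA) to 0.57 (Atp1b1 in CuO 40). Without CuO 40 replicate 2 the latter was 1.83 and called (adjusted p = 0.0148), and without PBS control replicate 2 Ano1 in CuO 40 was called at -0.61 (adjusted p = 0.0359). For Fxyd3, Scnn1a, Ano1 and Slc12a2, every step between neighbouring group means was within the spread of the pair.

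A list of 114 other genes of airway ion and water transport, in 10 groups of function, was read in the same fits. Between OVA and PBS controls 11 of them rose and 1 fell, where 5.22% of all genes were called, and the list's median fold change was -0.04 against -0.02 over all genes. Clca1, a secreted protein of the goblet cell that raises calcium-gated chloride current, rose by 6.87 ± 1.09. Fxyd2, another regulator of the Na,K-ATPase, rose by 1.05 ± 0.14, the glycerol channel Aqp3 by 0.99 ± 0.17 and the proton pump subunit Atp6v0d2 by 0.97 ± 0.14. The purinergic receptor P2ry2 rose by 0.79 ± 0.11, the potassium channel Kcnn4 by 0.68 ± 0.13 and Tmprss4, a protease that can activate the sodium channel, by 0.68 ± 0.11. Aqp1, the water channel of lung endothelium, fell by 0.74 ± 0.15.

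At 40 µg with PBS challenge, 12 of the 114 genes rose and 9 fell in CuO, where 14% of all genes were called, 7.81% higher and 6.23% lower. In CuO COOH 6 rose and 10 fell, where 10.3% of all genes were called. In CuO NH3 9 rose and 13 fell (13.2% of all genes), and in CuO PEG 0 rose and 2 fell (2.18%). Over the 4 materials, 1 list gene was called in all 4 and 11 in 3. The proton pump subunit Atp6v1c2 fell in all 4 materials, by values from -1.34 to -0.84. The sodium bicarbonate cotransporter Slc4a5 fell in CuO, CuO COOH and CuO NH3, from -1.46 to -1.35, and so did Aqp1, from -1.16 to -0.93, and the glucocorticoid receptor Nr3c1, from -1.23 to -0.83. In the same 3 materials the chloride proton exchanger Clcn5 rose, from 1.36 to 1.71, as did the potassium channel Kcnk1, from 0.69 to 1.00, and P2ry2, from 0.74 to 0.99. Of the 114 genes, 74 were called in none of the 25 comparisons with controls.

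The genes of the epithelial response to type 2 cytokines, a list of 11, stood beside Slc26a4 in the OVA controls, where 7 of them rose, among them Chil4 (4.40 ± 0.33), Arg1 (4.26 ± 0.38) and Retnla (4.24 ± 0.37). In CuO 40 with PBS challenge 2 of the 11 rose, Arg1 by 4.25 ± 0.63 and Retnla by 3.36 ± 0.62, both of which macrophages also express. In CuO PEG 40 only Retnla did (2.14 ± 0.51). Of all genes 3.72% rose in the OVA controls and 7.81% in CuO 40, and 2.18% were called either way in CuO PEG 40.

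Markers of the cells that could carry these transcripts moved with several results, and their part in them was not tested. Of all genes 3.72% rose and 1.51% fell in the OVA controls, and 7.81% rose and 6.23% fell in CuO 40. Called either way were 13.2% in CuO NH3 40 and 2.18% in CuO PEG 40, both with PBS challenge. Of 8 goblet cell markers, 6 rose in the OVA controls (Agr2 by 3.85 ± 0.43 and Muc5ac by 3.02 ± 0.48), and their summed linear level ran from 2579 to 5073 in PBS and from 21358 to 37656 in OVA controls. In CuO 40 2 of the 8 rose and the sum ran from 6420 to 10373, in CuO PEG 40 none did and it ran from 3448 to 4185. In CuO NH3 40 with OVA 6 of the 8 fell against the OVA controls, as did 1.92% of all genes. Of 7 club cell markers 2 fell in the OVA controls, and in CuO NH3 40 6 fell and 1 rose. The sum over the 7 ran from 426861 to 640977 in PBS controls, 292764 to 521777 in OVA controls and 255251 to 305044 in CuO NH3 40.

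In the OVA controls, where Scnn1g fell, the summed levels of alveolar type 1 markers and of ciliated markers were lower than in the PBS controls. Type 1 cells also express the sodium channel, and the part of either cell in the fall of Scnn1g was not tested. In that comparison 1.51% of all genes fell. Of 7 type 1 markers 2 fell (Clic5 by 0.92 ± 0.17 and Emp2 by 0.87 ± 0.17 on the log2 scale), and their sum ran from 105557 to 136274 in PBS and from 70630 to 96494 in OVA controls, without overlap. Of 8 ciliated markers Tppp3 alone fell, and the sum ran from 25332 to 31937 in PBS and from 14618 to 22972 in OVA controls, again without overlap. The median log2 fold change was -0.48 over the type 1 list and -0.06 over the ciliated list, so the ciliated list as a whole hardly moved. A sum of linear levels weighs the brightest genes most. Of 7 neutrophil markers 4 rose and 1 fell in CuO 40, where 7.81% of all genes rose and 6.23% fell. The neutrophil sum ran from 77304 to 92347 in CuO 40, against 66109 to 89326 in PBS controls.

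Ionocytes are the rare airway cells that express most Cftr per cell. Of 8 ionocyte markers measured, none was called between OVA and PBS controls, and Ascl3 and Bsnd were not well above background in any control sample. Of the 8, 1 fell in CuO 40, Stap1 (-1.01 ± 0.30), as did 6.23% of all genes. In CuO NH3 40 2 of the 8 fell, Stap1 (-0.70 ± 0.21) and Tfcp2l1 (-0.72 ± 0.13), where 13.2% of all genes were called either way. None of the 8 rose in either group, and the list's median log2 fold change was -0.08 in CuO 40 and 0.02 in CuO NH3 40. Of 7 endothelial markers 4 fell in the OVA controls and 6 in CuO 40, as did 1.51% and 6.23% of all genes. The endothelial sums ran from 145203 to 184002 in PBS controls, 93946 to 127032 in OVA controls and 73794 to 83732 in CuO 40. Of 8 markers of epithelium at large, none was called in the OVA controls and 5 rose in each of CuO, CuO COOH and CuO NH3 at 40 µg. In these 3 groups 14%, 10.3% and 13.2% of all genes were called, in either direction. Of 5 markers of kidney or gland, where Slc26a4 and Fxyd4 are also expressed, none was called in the OVA controls, and 3 of them (Krt20, Slc12a3 and Umod) were not well above background in any control sample.

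For each gene the 3 genes with the highest correlation over the 26 group means were read from all genes measured, which share libraries and controls. Those of Slc26a4 were C1qb (r = 0.977), C1qa (0.974) and C1qc (0.969), the chains of complement C1q, which macrophages make. Those of Fxyd4 were 2610318N02Rik (0.970), Sting1 (0.970), a sensor in innate immunity, and Slc26a4 (0.957). Cftr went most closely with the growth factor receptor Met (0.892), Tfcp2l1 (0.855) and the club cell gene Scgb3a2 (0.848). Scnn1g went with Ajuba (0.952), Fam189a2 (0.945) and Rras (0.937), and Scnn1a with Kank2 (0.942), Eogt (0.939) and Hoxb6 (0.938). For Scnn1b they were Fam187b (0.870), Phc2 (0.854) and Kctd10 (0.852), and for Ano1 Plpp6 (0.900), Dhx36 (0.862) and 2810001G20Rik (0.861). For Fxyd3, Slc12a2 and Atp1b1 no gene exceeded r = 0.795, the closest being Mfsd4a (0.779), Rida (0.772) and Prdm11 (0.795).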

How the data were processed

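The authors deposited, for each sample, the scanner output of Agilent Feature Extraction (version 12.0.2.2 per the file headers, array design on mm9), with the median foreground intensity of each spot and channel, not normalized, and a table of log2 values that the authors had quantile normalized per their methods, in which they also adjusted for labelling and array and fitted limma. Here the foreground intensity of each sample's own channel was taken to log2, control spots (3671 of 62976) and outlier spots were left out, and values were quantile normalized over the 89 samples and averaged over spots, probes and genes. Of the 56605 probes, 32994 matched a RefSeq gene by accession. Of the 22911 genes, 60 with a missing value were not tested.

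All 26 groups, taken from the labels, entered 1 limma fit (limma 3.58.1 in R 4.3.3) with dye and array as fixed terms (17 residual degrees of freedom), or dye, slide and position (50) for materials against core CuO. An array term uses only arrays with 2 samples (43 of 46). P-values were adjusted by Benjamini-Hochberg over all 22851 genes tested, and calls required adjusted values below 0.05 and changes beyond 0.58 on the log2 scale, either way. Samples were pools of 2 RNA samples, and beyond that nothing given here says how replicates differed, so p-values measure the spread between pools. No 2 samples correlated above 0.998. The number of arrays limits the precision.

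Members and lists were chosen with earlier results of these data known. Named genes were the 10 members, up to 3 called genes of each transport list per comparison by absolute log2 fold change, and the 3 genes of highest correlation with each member over the group means. Genes of the marker lists and of the type 2 list were named for their roles, with their values known. Alternatives were background correction, normalization, a filter on dim probes, the deposited log2 values, other batch terms, a replicate block, controls of the same slides, single probes and leaving out each sample.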

Additional observations from a re-analysis of the deposited data

Results flagged for a closer look

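Of 40 gene and group values in groups of 4 to 8 samples, 2 held a sample far from the others, a rate that chance alone gives (about 5%). Fxyd3 stood at 8.03 in replicate 4 of CuO NH3 10, with the next sample at 8.24 (n = 4). Atp1b1 stood at 12.8 in OVA control replicate 7, with the next at 12.3 (n = 8).

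For 7 pairs of gene and exposure the effect of the material differed between OVA-challenged and PBS-challenged mice by the interaction test. The differences (log2) were -3.35 for Slc26a4 and -3.62 for Fxyd4 in CuO 40, -4.42 and -4.87 in CuO COOH 40, -3.62 and -3.63 in CuO NH3 40, and -2.54 for Slc26a4 in CuO NH3 10. Of gene tests over all genes in this family 0.347% were called. In each of the 7 the gene had risen in PBS-challenged mice and was not called against the OVA controls in the fit with array. With dye, slide and position as terms, 5 of these pairs were called lower against the OVA controls, where 4137 of 274212 gene tests were called.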

How the results depend on the processing

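Of 750 pairs of gene and comparison, 45 were called, and normexp background correction made 43 of these calls, loess 43, the filter on dim probes 45 and the deposited normalized values 45. The batch terms moved most counts. Pairs called with array as a random block, with the other batch terms (dye, slide and position, or dye and array for the materials) and with the replicate block were 7, 5 and 12 (0 in the report) for OVA-challenged groups against OVA controls, 16, 16 and 16 (7) for the interaction, 24, 23 and 26 (10) for challenge within exposed groups, 7, 1 and 9 (3) for materials against core CuO, and 11, 11 and 13 (4) for dose. OVA-challenged groups against OVA controls gave 1 call with loess, 2 with controls of the same slides and 1 with probe 1 alone. OVA against PBS controls gave 1 call on slides 4 to 6, and 2 on slides 1 to 3. The sign turned for Slc26a4 in CuO 40 with OVA, from 0.29 to -1.07 (random block), -1.12 (other batch terms) and -1.10 (replicate block), and for Fxyd4 in CuO PEG 2.5 with OVA, from 0.07 to -0.99 (replicate block); the cause was not tested. Leaving out 1 sample gave 2 to 3 calls for the controls, 14 to 19 for PBS-challenged groups, 0 to 3 for OVA-challenged groups, 4 to 12 for the interaction, 6 to 15 for challenge, 2 to 4 for materials and 2 to 5 for dose. Where fits tied for the lowest count, only the first is named. For controls that fit left out PBS control replicate 2, for PBS-challenged groups CuO 40 replicate 2 and for the interaction CuO 10 replicate 2. For challenge it left out CuO PEG 2.5 replicate 3, for materials CuO 10 replicate 2 and for dose CuO NH3 2.5 replicate 3. The controls gave 2 calls in 5 of 15 fits. For OVA-challenged groups 31 of 43 fits gave 0, the count of the full fit. Over all genes, calls with the random block and the replicate block were 13504 and 14669 for materials (2057 in the report, 944 with the other terms), 3785 and 3883 for the interaction (951, and 4269), 11856 and 12175 for challenge (5600, and 11974), 7283 and 7668 for dose (3970, and 7594) and 5865 and 12879 for OVA-challenged groups (3299). Levels ranged over more than 1 log2 unit for 2 genes, and for 3 with no batch terms removed. Samples with the same replicate number deviated together somewhat more (mean r = 0.073 over 984 pairs, 402 of them over 0.1) than those with different numbers (mean r = -0.025 over 2805 pairs, 489 over 0.1), but not in every pair (lowest -0.320), so the numbers were not taken as a pairing. With the replicate block Scnn1g in the OVA controls stood at -0.53, under the fold threshold, and Fxyd3 in CuO 40 with OVA was called at -0.58. Cftr probe 1 and Scnn1b were near background, which limits what their values can show.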

Other observations

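Each of the 12 exposed OVA-challenged groups overlapped the OVA controls in the level of both Slc26a4 and Fxyd4, and for Slc26a4 11 of the 12 PBS-challenged groups lay wholly above the PBS controls. Ano1 was higher in the modified materials than in core CuO in 16 of 18 comparisons, without overlap in 10, and none of these was called. The same CuO samples serve in several of these comparisons. All samples of Cftr lay above the PBS controls in 6 of the 12 PBS-challenged groups and below them in 2, with probe 1 near background. How many of all genes separate in these ways was not counted, so the counts here are a description only.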
